A study of Mus musculus with 93 samples.

Results

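The unfolded protein response is the set of signals by which a cell answers misfolded protein in the endoplasmic reticulum, the compartment where secreted and membrane proteins are folded. Its 31 genes described here were chosen by symbol from what is known of the pathway, but with earlier results of these data known. All 31 were found among the 30235 genes of the expression tables and passed the filter on low counts in both tissues. They fall into 14 chaperones and folding factors, 7 genes of degradation, 7 of the PERK-ATF4 arm and 3 sensors and transcription factors of the IRE1 and ATF6 arms. The RNA came from female mice, either homozygous for a knock-in allele of Efemp1 (Efemp1ki/ki), a model of Doyne honeycomb retinal dystrophy, or wild type (Efemp1+/+), untreated, at 3, 9 and 17 months of age. Neural retina and posterior eyecup, the eye without retina and lens, were sequenced as poly(A) RNA in 45 eyecup and 48 retina libraries, with 8 libraries per group except 7 for Efemp1ki/ki eyecups at 17 months and 6 for wild-type eyecups at 3 months. The labels do not say whether libraries of a group came from separate mice, so every p-value measures the spread between these libraries, which may in part be technical.

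Membrane sensors of the compartment carry the signal. ATF6 is cut in the Golgi and the released fragment enters the nucleus. IRE1 (gene Ern1) splices the Xbp1 message into a form that encodes a strong transcription factor. PERK (gene Eif2ak3) phosphorylates the initiation factor eIF2alpha, which slows translation in general while favouring that of ATF4. The ATF6 and IRE1 arms are known for raising chaperones and the machinery of ER-associated degradation through promoter sequences called ER stress response elements (ERSE), and ATF4 for raising genes of amino acid supply and stress adaptation through C/EBP-ATF composite sites (CARE), also when PERK is not involved. Efemp1 encodes fibulin-3, a secreted matrix protein, and the mutant protein is known to be poorly secreted from cultured cells.

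The promoters shown first belong to some of the 31 genes whose windows hold an ERSE or a CARE. The windows of Eif2ak3, Ppp1r15a and Ern1, which are called below, hold neither. Of the genes shown, Hspa5, Chac1 and Asns were not called by genotype. Each promoter is the RefSeq window from 250 bases before to 50 bases after the gene's start on GRCm38.p6, read 5′ to 3′ on the gene's own strand. Capitals mark the CCAAT and CCACG ends of an ERSE, spelled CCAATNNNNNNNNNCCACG and searched on both strands, so that an element on the opposite strand reads CGTGG and ATTGG, or a whole CARE, spelled TGATGNAA.
Hspa5 (chr2:34771840-34772139, plus strand): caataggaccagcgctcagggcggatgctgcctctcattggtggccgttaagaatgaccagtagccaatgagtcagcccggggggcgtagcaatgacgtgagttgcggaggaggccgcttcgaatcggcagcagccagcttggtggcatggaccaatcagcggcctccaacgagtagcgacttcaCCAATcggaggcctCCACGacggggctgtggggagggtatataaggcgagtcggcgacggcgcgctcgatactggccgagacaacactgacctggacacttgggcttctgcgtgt
Creld2 (chr15:88819396-88819695, plus strand): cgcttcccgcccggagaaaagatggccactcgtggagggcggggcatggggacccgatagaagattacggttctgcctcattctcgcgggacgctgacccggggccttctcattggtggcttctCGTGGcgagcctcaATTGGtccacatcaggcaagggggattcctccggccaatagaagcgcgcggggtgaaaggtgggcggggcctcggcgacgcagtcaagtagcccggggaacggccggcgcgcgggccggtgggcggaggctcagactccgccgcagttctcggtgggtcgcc
Pdia6 (chr12:17266339-17266638, plus strand): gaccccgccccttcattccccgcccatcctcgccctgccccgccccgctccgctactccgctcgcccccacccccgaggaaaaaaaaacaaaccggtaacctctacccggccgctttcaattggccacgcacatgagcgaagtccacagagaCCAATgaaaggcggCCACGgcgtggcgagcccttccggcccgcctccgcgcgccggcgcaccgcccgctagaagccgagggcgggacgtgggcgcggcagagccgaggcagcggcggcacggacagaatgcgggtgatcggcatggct
Syvn1 (chr19:6046326-6046625, plus strand): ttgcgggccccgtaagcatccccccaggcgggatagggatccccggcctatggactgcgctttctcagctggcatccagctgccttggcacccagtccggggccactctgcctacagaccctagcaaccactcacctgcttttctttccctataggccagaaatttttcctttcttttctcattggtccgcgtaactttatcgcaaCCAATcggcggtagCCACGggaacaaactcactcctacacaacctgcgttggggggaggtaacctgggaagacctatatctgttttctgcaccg
Chac1 (chr2:119350992-119351291, plus strand): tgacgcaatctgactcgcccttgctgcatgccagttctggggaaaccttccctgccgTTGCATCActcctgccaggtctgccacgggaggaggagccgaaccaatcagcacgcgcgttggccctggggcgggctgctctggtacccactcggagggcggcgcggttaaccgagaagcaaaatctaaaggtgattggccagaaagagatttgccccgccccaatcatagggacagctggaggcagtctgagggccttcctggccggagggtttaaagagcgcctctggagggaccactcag
Asns (chr6:7693160-7693459, minus strand): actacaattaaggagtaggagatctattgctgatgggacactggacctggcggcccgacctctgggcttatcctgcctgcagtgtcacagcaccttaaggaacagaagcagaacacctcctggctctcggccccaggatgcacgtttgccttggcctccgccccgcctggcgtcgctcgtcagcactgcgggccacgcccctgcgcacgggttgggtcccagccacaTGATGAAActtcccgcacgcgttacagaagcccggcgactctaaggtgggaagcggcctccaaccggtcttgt
The ERSE of Hspa5 begins 65 bases before the start, that of Pdia6 98, that of Syvn1 44 and that of Creld2, on the opposite strand, 126. Windows were listed for 27 of the 31 genes, and Hyou1, Manf, Atf6 and Derl1 had none. An ERSE was present in 7 of 12 chaperone genes (Calr, Canx, Creld2, Dnajc3, Hsp90b1, Hspa5 and Pdia6) and in Derl3 and Syvn1 of the degradation genes, but in none of the 7 PERK-ATF4 genes. Over all 32851 promoter windows 0.119% held one. The related ERSE-II, in which ATTGG and CCACG lie 1 base apart (either strand), was found in Dnajb11 and Herpud1, against 0.0365% of all windows. A CARE lay in 3 of 7 PERK-ATF4 genes (Asns, Chac1 and Trib3) and in Herpud1, against 3.97% of all windows. These are matches of letters, and a window without one says nothing of what binds there.

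Levels were compared between genes on the deposited TPM scale, which accounts for transcript length. Chaperones stood at the top in both tissues. In eyecups the highest median belonged to Calr (calreticulin, a lectin chaperone) with 349.9 TPM, followed by Hspa5 (BiP, the main ER Hsp70) with 287.3, Pdia3 with 284.3 and Hsp90b1 (GRP94) with 280.9 TPM. In retinas Hsp90b1 led with 383.5 TPM, Atf4 came next with 322.5, then Canx (calnexin, the membrane-bound lectin chaperone) with 317.5 and Calr with 315.7 TPM. The lowest in both was Derl3, with medians of 1.09 TPM in eyecups and 2.59 TPM in retinas. Eyecups held the pigment epithelium gene Rpe65 at 52.2 to 330 TPM, but also the corneal keratin Krt12 at 7508 to 25490 TPM and the muscle actin Acta1 at 572 to 5422 TPM. Retinas held Rpe65 at 2.51 to 33.8 TPM, Krt12 at 1.14 to 151 TPM and Acta1 at 0.543 to 3.41 TPM. In such bulk tissue, fewer cells of a type and less RNA per cell cannot be told apart. Library totals ran from 9218087 to 37475423 estimated counts, and 3 libraries of each tissue stood apart from the rest in overall expression. They were library 4 of Efemp1ki/ki at 3 months, library 4 of wild type at 9 months and library 2 of wild type at 17 months in eyecups, and library 5 of Efemp1ki/ki at 3 months, library 7 of wild type at 9 months and library 2 of wild type at 17 months in retinas. Efemp1 ranged from 181.3 to 332 TPM in eyecups and from 71.5 to 125.7 TPM in retinas. It was not called by genotype, with log2 fold changes of Efemp1ki/ki over wild type of -0.12, -0.03 and -0.06 in eyecups at 3, 9 and 17 months and of -0.02, -0.07 and 0.095 in retinas, so its level does not check the genotype labels.

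**Figure D1:**
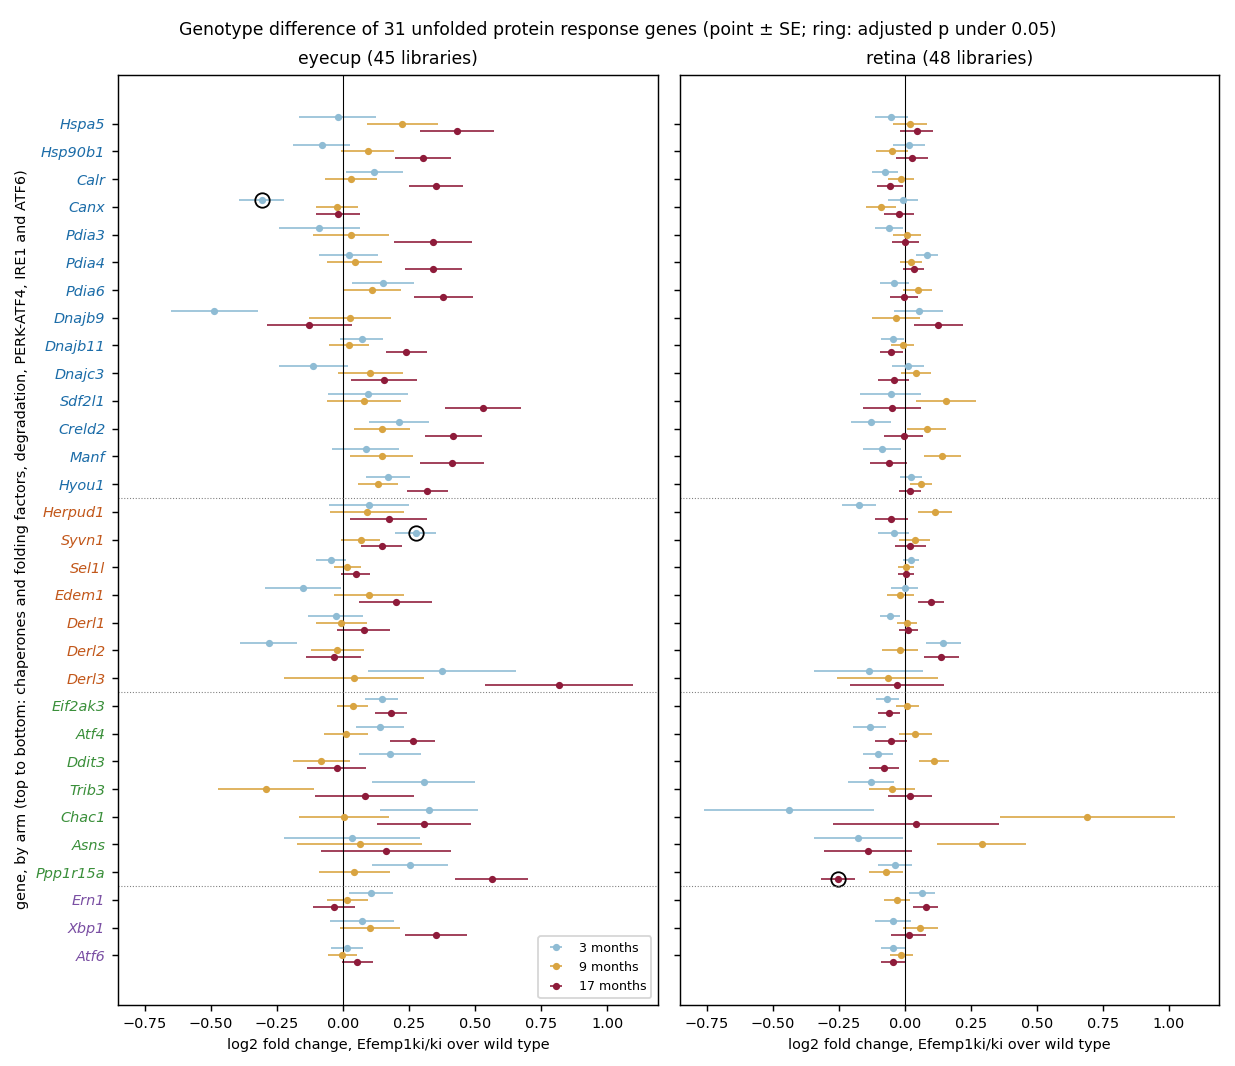
Log2 fold change of Efemp1ki/ki over wild type (x axis, point ± SE) for each of the 31 genes (y axis, grouped by arm), in eyecup (left) and retina (right), coloured by age, with a ring where the adjusted p was under 0.05. At 17 months the eyecup points of the chaperones lie to the right of 0 except Canx and Dnajb9, whereas their retina points scatter around 0. At 3 months all 7 PERK-ATF4 points of the retina lie to the left of 0.

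The first comparison was Efemp1ki/ki against wild type in the eyecup. Averaged over the 3 ages, 6 of the 31 genes rose and none fell, among 807 genes called of 18003 tested (percent called 4.48, with 1.12 for higher and 3.37 for lower). They were Hyou1, Creld2 and Pdia6 of the folding genes, Syvn1 of degradation, and Eif2ak3 and Ppp1r15a of the PERK arm, and each changed by less than 0.3 on the log2 scale. At single ages only Syvn1 (higher) and Canx (lower) at 3 months passed, 2 of 31 against 3.07% of all genes (0.467% higher, 2.61% lower). None passed at 9 months (0.00555% called, an unadjusted p under 0.05 for 0 of the 31 and 249 of 18003 genes, 0 by DESeq2) or at 17 months (0.0611% called, 0.0444% higher and 0.0167% lower), where edgeR gave an unadjusted p under 0.05 to 16 of the 31, all higher, and to 1803 of 18003 genes, while DESeq2 called 2. The 31 genes had a median log2 fold change of 0.12 over the mean of ages with 28 above 0, beside a median of 0.015 and 54.4% above 0 for all genes tested. Without the libraries that stood apart 4 of the 6 were called (Hyou1, Creld2, Syvn1 and Eif2ak3). With a GC offset per library, taken up below, none of the 6 was called, and on the log2(TPM + 1) scale only Pdia6 was.

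On GRCm38 the 6 genes are Hyou1 (ENSMUSG00000032115.14, chr9:44379490-44392369), Creld2 (ENSMUSG00000023272.3, chr15:88819646-88826681), Pdia6 (ENSMUSG00000020571.12, chr12:17266545-17284770), Syvn1 (ENSMUSG00000024807.17, chr19:6046576-6053712), Eif2ak3 (ENSMUSG00000031668.14, chr6:70844515-70905245) and Ppp1r15a (ENSMUSG00000040435.12, chr7:45522916-45526268). All are protein-coding, and counts cover the whole gene.

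Among the folding factors, Hyou1 (GRP170, which exchanges the nucleotide of BiP) gave the smallest p. At 17 months its lowest, median and highest levels were 81.4, 102.3 and 115.4 CPM (counts scaled to library size) in Efemp1ki/ki eyecups, against 71.8, 82.0 and 85.5 CPM in wild-type eyecups. At 3 months it had 89.1, 97.5 and 113.1 CPM in Efemp1ki/ki eyecups and 77.3, 87.7 and 101.5 CPM in wild-type eyecups. The groups overlapped at each age, but at 17 months 6 of the 7 Efemp1ki/ki libraries lay above every wild-type one. The log2 fold change over the mean of ages was 0.21 ± 0.05 (SE, adjusted p = 0.00574), with 21 of 23 Efemp1ki/ki libraries above the wild-type median of their age.

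Creld2, a secreted disulfide-handling protein induced by ER stress, averaged 25.3 ± 3.67 CPM in Efemp1ki/ki, against 18.9 ± 1.89 CPM in wild-type eyecups at 17 months (SD, n = 7 and 8). At 9 months it had 23.2 ± 3.47 CPM in Efemp1ki/ki, against 20.9 ± 3.75 CPM in wild type, and at 3 months 26.5 ± 3.93 CPM in Efemp1ki/ki, against 22.8 ± 2.59 CPM in wild type. Its log2 fold change was 0.26 ± 0.06 (adjusted p = 0.0118), with 18 of 23 libraries above the wild-type median. Pdia6, a protein disulfide isomerase, reached 98.7, 133.3 and 163.7 CPM (lowest, median, highest) in Efemp1ki/ki eyecups and 77.2, 103.7 and 118.6 CPM in wild-type eyecups at 17 months. Its change was 0.21 ± 0.06 (adjusted p = 0.0465, higher in 20 of 23 libraries). Hspa5 stood at 322.1, 466.6 and 552.1 CPM in Efemp1ki/ki and at 254.4, 356.2 and 395.5 CPM in wild-type eyecups at 17 months. Its log2 fold changes of -0.02 ± 0.15, 0.23 ± 0.14 and 0.43 ± 0.14 at 3, 9 and 17 months did not pass (adjusted p = 0.968, 0.9998 and 0.267). The largest value of the folding genes at 17 months belonged to Sdf2l1, a partner of BiP's co-chaperones, with 12.3 ± 2.26 CPM in Efemp1ki/ki, against 8.54 ± 1.42 CPM in wild type and a log2 fold change of 0.53 ± 0.14 (adjusted p = 0.180). Of the 14 folding genes 12 had positive values at 17 months, beside 55.1% of all genes, with a median of 0.34 against 0.026 for all genes. The exceptions were Canx and Dnajb9.

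Canx went the other way at 3 months. It had 185.8, 274.2 and 291.1 CPM (lowest, median, highest) in Efemp1ki/ki and 278.8, 329.5 and 359.1 CPM in wild-type eyecups, a log2 fold change of -0.31 ± 0.09 (adjusted p = 0.0389). The 2 Efemp1ki/ki libraries lowest in Canx, with 185.8 and 233.4 CPM, were the eyecups with an extreme GC trend, and on the TPM scale the difference was 0.008. Canx is 42.2% G or C, below the median of 49.7% over all genes tested.

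The degradation genes mark, extract and destroy misfolded protein. Syvn1 (HRD1, the ubiquitin ligase of the retrotranslocation complex) rose at 3 months, with 51.2, 61.2 and 76.9 CPM (lowest, median, highest) in Efemp1ki/ki and 48.2, 51.8 and 57.8 CPM in wild-type eyecups. This gave a log2 fold change of 0.28 ± 0.08 at 3 months (adjusted p = 0.0448) and 0.16 ± 0.04 over the mean of ages (adjusted p = 0.0251, higher in 18 of 23 libraries). The 3-month calls of Syvn1 and Canx were both lost with the GC offset, on the TPM scale, with the replicate block, and without the libraries that stood apart or had an extreme GC trend. No other gene of the arm passed at any age. Derl3, a derlin channel gene that was barely expressed, had the largest value of the arm at 17 months, 0.82 ± 0.28 (adjusted p = 0.290). The arm's median over the mean of ages was 0.049, with 6 of 7 values above 0, beside 54.4% of all genes. Syvn1 overlaps Mrpl49 on the opposite strand, Pdia6 overlaps Atp6v1c2 and Ppp1r15a overlaps Tulp2, and since the strand setting of the counting is not given in the sources used here, their reads may be mixed.

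In the PERK-ATF4 arm, all 7 values were above 0 over the mean of ages, beside 54.4% of all genes, with a median of 0.12. The smallest, 0.02 for Ddit3, was below 0 on the TPM scale, with the replicate block, and without the libraries that stood apart or had an extreme GC trend. Eif2ak3 itself had 33.1, 36.0 and 39.1 CPM (lowest, median, highest) in Efemp1ki/ki and 28.2, 31.4 and 36.9 CPM in wild-type eyecups at 17 months. At 3 months it had 35.4, 36.9 and 38.1 CPM in Efemp1ki/ki, against 29.4, 34.2 and 35.8 CPM in wild type. Its change was 0.12 ± 0.04 (adjusted p = 0.0368, higher in 20 of 23 libraries). Ppp1r15a (GADD34, the phosphatase subunit that reverses PERK's action) had 35.5, 58.4 and 90.9 CPM in Efemp1ki/ki, against 28.2, 40.5 and 45.1 CPM in wild-type eyecups at 17 months. Its log2 fold change over the mean of ages was 0.29 ± 0.08 (adjusted p = 0.0313), higher in 16 of 23 libraries but in only 2 of 8 at 9 months. The transcription factors did not pass. Atf4 had log2 fold changes of 0.14 ± 0.09, 0.01 ± 0.08 and 0.26 ± 0.09 at 3, 9 and 17 months (adjusted p = 0.454, 0.9998 and 0.267). Ddit3 (CHOP, the death-promoting factor of the arm) had 0.18 ± 0.12, -0.08 ± 0.11 and -0.02 ± 0.11 (adjusted p = 0.468, 0.9998 and 0.963). Xbp1 of the IRE1 arm had 0.07 ± 0.12, 0.10 ± 0.11 and 0.35 ± 0.12 (adjusted p = 0.850, 0.9998 and 0.273). Spliced and unspliced Xbp1 messages are not distinguished in gene counts.

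**Figure D2:**
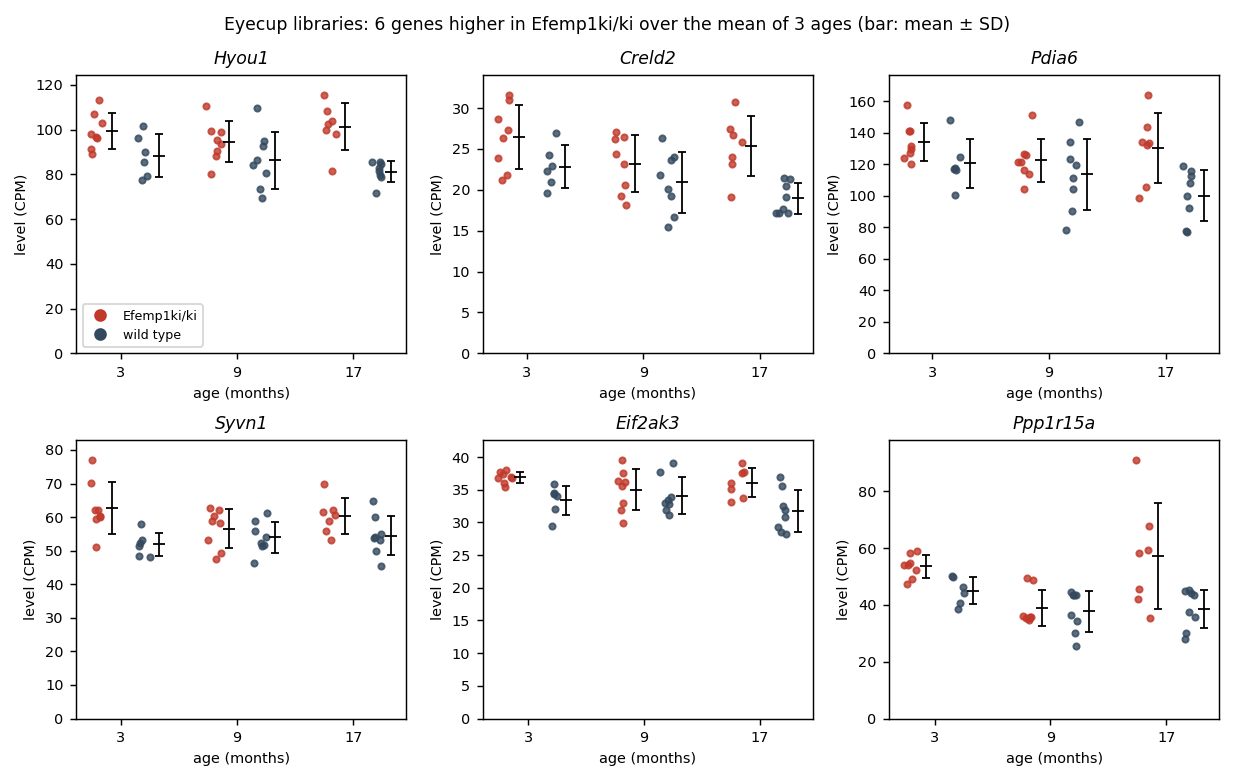
Levels in CPM (y axis) of the 6 genes called over the mean of ages, 1 point per eyecup library, at 3, 9 and 17 months (x axis) with Efemp1ki/ki left of wild type and bars for mean ± SD. The groups overlap at every age, and at 17 months the mean of each gene is higher in Efemp1ki/ki, with Ppp1r15a of 1 library at 90.9 CPM.

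Other properties of the eyecup libraries also differed between the genotypes, some of them not in the same direction at every age. The GC trend of a library, the slope of its log2 levels on GC content per 10 percentage points, averaged 0.244 ± 0.277 in Efemp1ki/ki and -0.0571 ± 0.0255 in wild type at 3 months, and 0.108 ± 0.119 in Efemp1ki/ki and -0.0159 ± 0.0571 in wild type at 17 months (SD). With a GC offset per library 1 of the 31 genes was called over the mean of ages and it was none of the 6. On the log2(TPM + 1) scale 1 was called, Pdia6. The 14 immediate early genes summed to a median of 620.7 CPM (529.1 to 1801) in Efemp1ki/ki and 508.5 CPM (374.8 to 624.6) in wild type at 17 months, and 10 of the 14 were called higher over the mean of ages. Efemp1ki/ki library 5 at 17 months holds the top of that range and of Ppp1r15a. Without it 3 of the 6 genes remained called (Hyou1, Creld2 and Syvn1). The 10 ocular surface markers summed to a median of 40560 CPM (26140 to 54940) in Efemp1ki/ki and 31200 CPM (25260 to 44210) in wild type at 17 months, and with them as a covariate 4 of the 6 (Hyou1, Creld2, Syvn1 and Eif2ak3) were called higher and 2 other genes lower. Lens genes, from a tissue the dissection removes, summed to medians of 5.01 CPM in Efemp1ki/ki, against 3.45 CPM in wild type at 17 months. None of the 6 tested passed, with a median log2 fold change of 1.39 over the mean of ages, and their part in the result was not tested. Markers of rods (9 summed) had medians of 1324 CPM (120.8 to 8617) in Efemp1ki/ki and 2874 CPM (298.7 to 10240) in wild type at 17 months. Mitochondrially encoded genes had 32940 CPM (9559 to 89370) in Efemp1ki/ki and 64500 CPM (53410 to 91640) in wild type at 3 months, and 75400 CPM (33640 to 100700) in Efemp1ki/ki, against 93050 CPM (44610 to 156200) in wild type at 17 months. The part of both lists was not tested. Beyond leaving out library 5, the part of the immediate early genes was not tested either.

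Genes of the same pathways outside the 31 were counted for comparison. Over the mean of ages in the eyecup, 0 of 29 other folding and secretion genes and 0 of 20 other degradation genes passed by edgeR, with medians of 0.07 and 0.03 on the log2 scale. Of 35 other ATF4 targets 1 rose, Mars (methionyl-tRNA synthetase), by 0.15 ± 0.05 (adjusted p = 0.0471), and Mars overlaps Ddit3 on the opposite strand. Among 16 other sensors and regulators Atf6b, the paralogue of Atf6, rose by 0.18 ± 0.04 (adjusted p = 0.0143) and Mbtps2, the protease that releases ATF6, fell by 0.31 ± 0.09 (adjusted p = 0.0370). Of 17 cytosolic heat shock genes Chordc1, an HSP90 partner, fell by 0.35 ± 0.07 (adjusted p = 0.00461). The 28 genes outside the list whose promoter window holds an ERSE included 11 that were tested, of which Alg12 alone was called, with a median of 0.046 beside 0.17 for the 9 listed genes with an ERSE.

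In the retina, the same comparison called 1 of the 31 genes. None passed at 3 months (1.83% called, 4 of the 31 with an unadjusted p under 0.05, 0 by DESeq2) or at 9 months (0% called, 1047 of 17240 genes with an unadjusted p under 0.05 and 2 of the 31). At 17 months 1 passed against 0.406% of all genes, and over the mean of ages 1 against 5.24% (2.55% higher, 2.69% lower). Both times it was Ppp1r15a, which fell. It had 15.8, 19.1 and 21.0 CPM (lowest, median, highest) in Efemp1ki/ki and 16.1, 23.0 and 26.5 CPM in wild-type retinas at 17 months, with 8 of 8 Efemp1ki/ki libraries below the wild-type median. The log2 fold change was -0.25 ± 0.06 at 17 months (adjusted p = 0.0481) and -0.12 ± 0.04 over the mean of ages (adjusted p = 0.0428), and without the libraries that stood apart neither passed. The median of the 31 genes was -0.001 over the mean of ages, with 14 above 0, beside a median of -0.002 and 48.9% above 0 for all genes. All 7 PERK-ATF4 values were below 0 at 3 months (median -0.126), when 49.7% of all genes were above 0. In that arm 5 of 7 were above 0 at 9 months and 2 of 7 at 17 months. Hspa5 had log2 fold changes of -0.05 ± 0.06, 0.02 ± 0.06 and 0.05 ± 0.06 at 3, 9 and 17 months, and Xbp1 -0.04 ± 0.07, 0.06 ± 0.07 and 0.02 ± 0.07. Atf4 had -0.13 ± 0.06, 0.04 ± 0.06 and -0.05 ± 0.06, and Ddit3 -0.10 ± 0.06, 0.11 ± 0.06 and -0.08 ± 0.06. Of the other lists over the mean of ages, 1 of 35 ATF4 targets (Psat1, serine synthesis, lower by a log2 fold change of -0.11 ± 0.03, adjusted p = 0.0327) and 1 of 17 heat shock genes (Fkbp4, -0.08 ± 0.03, adjusted p = 0.0418) passed.

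Whether the genotype difference itself differed between the tissues was tested in a joint model of all 93 libraries, which took them as independent. The model held 1 estimate of spread per gene for both tissues. The biological coefficient of variation, the spread between libraries beyond counting noise, was 0.309 in the eyecup and 0.0963 in the retina. The labels do not say whether eyecups and retinas came from the same mice. The genotype difference differed for 5 of the 31 genes, all with a higher value in the eyecup, against 3.23% of 19210 genes (0.817% in that direction). The differences of log2 fold changes were 0.40 ± 0.09 for Ppp1r15a (adjusted p = 0.00560), 0.16 ± 0.04 for Eif2ak3 (adjusted p = 0.0180), 0.27 ± 0.07 for Creld2 (adjusted p = 0.0305), 0.17 ± 0.05 for Hyou1 (adjusted p = 0.0377) and 0.21 ± 0.06 for Calr (adjusted p = 0.0466). Calr was called by genotype in neither tissue alone. With the GC offset 1 gene was called and on the TPM scale none.

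Age was examined next. In the eyecup none of the 31 genes passed between 17 and 3 months, in Efemp1ki/ki (3.57% of all genes called, 2.61% higher and 0.967% lower, 6 of the 31 with an unadjusted p under 0.05) or in wild type (5.88% called, 2.73% higher and 3.16% lower, 10 with an unadjusted p under 0.05). DESeq2 called 1 of them in wild type. The folding genes had a median of 0.027 in Efemp1ki/ki (10 of 14 above 0), beside 0.061 and 60.3% above 0 for all genes. In wild type their median was -0.25 (0 of 14 above 0), beside 0.029 and 53.9% above 0 for all genes. On the TPM scale the median of the 31 genes was -0.066 in Efemp1ki/ki and -0.21 in wild type, beside -0.062 and -0.016 for all genes. The change of the genotype difference with age was above 0 for 14 of 14 folding genes and for 53.6% of all genes. Their median was 0.30, beside 0.021 for all genes. Folding genes moved together from library to library in the eyecup (median correlation 0.69 within groups), so these are not 14 separate observations. No gene passed the edgeR test of the change of the genotype difference (0% called, 560 of 18003 genes and 5 of the 31 with an unadjusted p under 0.05). The ocular surface markers had summed medians of 31200 CPM at 17 months and 44360 CPM at 3 months in wild type, and with them as a covariate the value for Hspa5 in wild type was 0.09 rather than -0.25. Between 9 and 3 months, over both genotypes, Ppp1r15a fell (-0.36 ± 0.10, adjusted p = 0.0154) and Atf4 fell (-0.21 ± 0.06, adjusted p = 0.0233), 2 of 31 against 12.7% of all genes (5.49% higher, 7.22% lower). With the GC offset or the ocular surface covariate neither was called, and Atf4 was also lost on the TPM scale, with the replicate block and without the libraries of extreme GC trend. Between 17 and 9 months none passed against 5.2% (4.3% higher), with 3 at an unadjusted p under 0.05 and 1 called by DESeq2.

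In the retina, where the biological coefficient of variation was 0.0963 against 0.309 in the eyecup, age separated more genes. Between 17 and 3 months 4 of the 31 passed in Efemp1ki/ki (18.8% of all genes, 9.74% higher and 9.01% lower) and 7 in wild type (17.8%, 9.89% higher and 7.92% lower). Of the 7 in wild type 6 fell and 1 rose, and in Efemp1ki/ki 2 fell and 2 rose. Of the folding genes, Canx and Dnajb11 (a co-chaperone of BiP) fell in both genotypes, and Pdia3 and Pdia6 fell in wild type. Canx had 333.7, 381.7 and 400.4 CPM (lowest, median, highest) at 17 months and 359.7, 415.7 and 539.1 CPM at 3 months in Efemp1ki/ki, a log2 fold change of -0.17 ± 0.06 (adjusted p = 0.0286). In wild type it had 332.0, 379.3 and 432.2 CPM at 17 months and 392.1, 431.1 and 451.7 CPM at 3 months, a change of -0.16 ± 0.06 (adjusted p = 0.0455). On the TPM scale the changes of Canx were 0.009 in Efemp1ki/ki and 0.005 in wild type. Dnajb11 changed by -0.14 ± 0.04 in Efemp1ki/ki (adjusted p = 0.0201) and by -0.14 ± 0.04 in wild type (adjusted p = 0.0251). Pdia3 changed by -0.18 ± 0.05 (adjusted p = 0.0126) and Pdia6 by -0.18 ± 0.05 (adjusted p = 0.0182) in wild type.

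Of the degradation genes, Derl1 fell in wild-type retinas, with 67.9, 71.6 and 77.8 CPM (lowest, median, highest) at 17 months and 77.1, 81.0 and 84.4 CPM at 3 months. The 2 highest libraries at 17 months, with 77.2 and 77.8 CPM, reached into the 3-month range and the other 6 lay below it. The log2 fold change was -0.15 ± 0.04 (adjusted p = 0.00309). Herpud1, an ERAD scaffold, fell by 0.18 ± 0.06 in wild type (adjusted p = 0.0377). Derl3, the lowest of the 31 genes by TPM, rose in Efemp1ki/ki, with 1.39 ± 0.25 CPM at 17 months and 0.86 ± 0.34 CPM at 3 months (SD, n = 8 each), a log2 fold change of 0.62 ± 0.20 (adjusted p = 0.0217), which was not called without the libraries that stood apart or had an extreme GC trend. In wild type its value was 0.51 ± 0.19 (adjusted p = 0.0534), and in each genotype 8 of 8 libraries at 17 months lay above the 3-month median. Ern1, the IRE1 sensor, rose with age in both genotypes. It had 59.0, 65.5 and 70.3 CPM at 17 months and 47.6, 57.0 and 65.4 CPM at 3 months in Efemp1ki/ki, and 57.0, 63.0 and 66.4 CPM at 17 months and 48.9, 55.4 and 60.7 CPM at 3 months in wild type. The changes were 0.20 ± 0.05 in Efemp1ki/ki (adjusted p = 0.00285) and 0.19 ± 0.05 in wild type (adjusted p = 0.00547), and all 8 libraries at 17 months lay above the 3-month median in each genotype. No PERK-ATF4 gene passed between 17 and 3 months. Of other folding genes outside the list, Txndc5 fell by 0.31 ± 0.05 in each genotype, and 4 of 29 fell in Efemp1ki/ki and 5 of 29 in wild type.

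**Figure D3:**
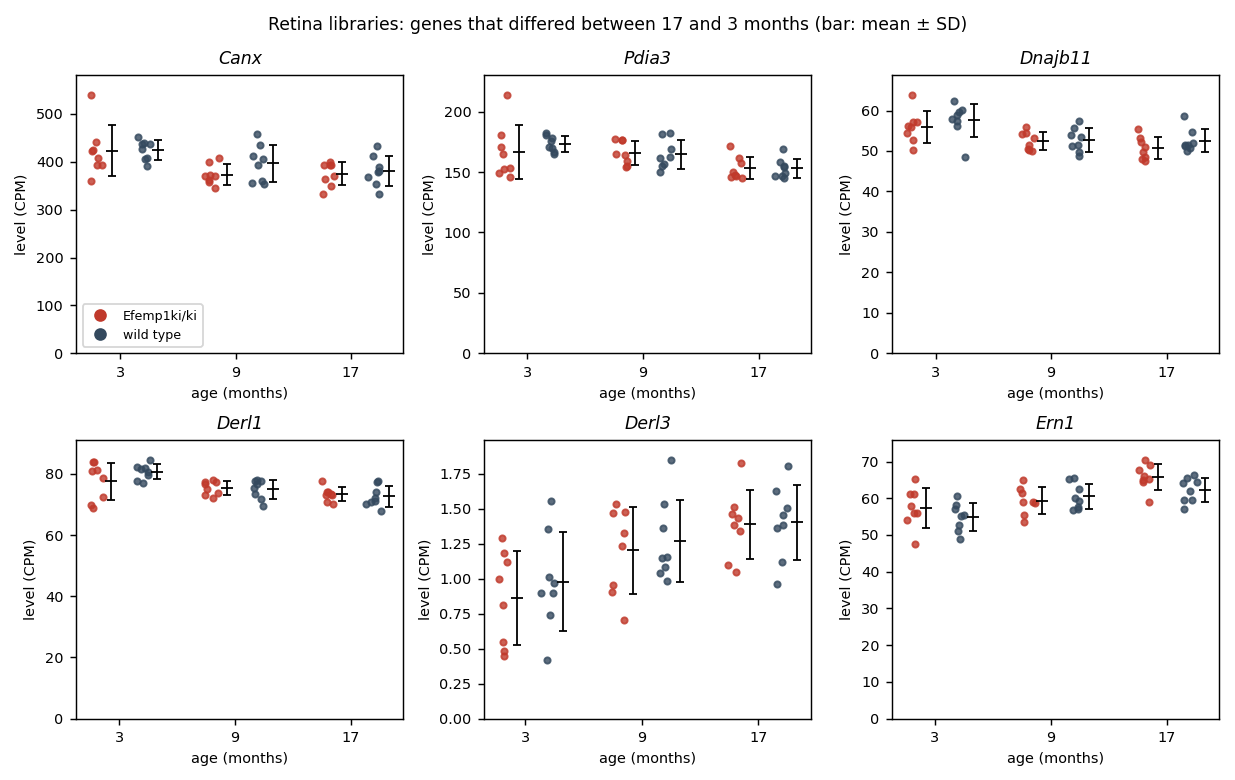
Levels in CPM (y axis) of 6 of the genes that differed between 17 and 3 months, 1 point per retina library, at 3, 9 and 17 months (x axis) with Efemp1ki/ki left of wild type and bars for mean ± SD. Canx, Pdia3, Dnajb11 and Derl1 lie lower and Derl3 and Ern1 higher at 17 than at 3 months, with overlapping ranges.

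The 9-month libraries placed these changes in time. Between 9 and 3 months, over both genotypes, 9 of the 31 passed in the retina (34% of all genes, 17.4% higher and 16.6% lower). Derl3 (0.38 ± 0.14), Edem1 (0.11 ± 0.04, a lectin that hands glycoproteins to degradation) and Ern1 (0.09 ± 0.03) rose. Canx (-0.14 ± 0.04), Dnajb11 (-0.11 ± 0.03), Calr (-0.11 ± 0.04), Atf4 (-0.11 ± 0.04), Atf6 (-0.09 ± 0.03) and Derl1 (-0.07 ± 0.03) fell, with adjusted p between 0.00478 and 0.0488. Between 17 and 9 months 7 passed (27% of all genes, 12.7% higher and 14.3% lower). Ern1 (0.10 ± 0.03), Eif2ak3 (0.09 ± 0.03) and Hyou1 (0.08 ± 0.03) rose, and Dnajb9 (-0.17 ± 0.07), Xbp1 (-0.15 ± 0.05), Pdia3 (-0.11 ± 0.04) and Pdia6 (-0.10 ± 0.04) fell, with adjusted p between 0.0136 and 0.0491. On the TPM scale Dnajb9 had 0.17 instead and was called higher, and Pdia3 had 0.013, so the direction of both depends on the scale. Without the libraries that stood apart 4 of the 7 were called (Ern1, Xbp1, Pdia3 and Pdia6). Ern1 was the only one of the 31 called higher in both steps, and the share of all genes called higher in both was not counted. The change of the genotype difference with age was called for no gene in the retina by edgeR (0% called, 690 of 17240 genes and 1 of the 31 with an unadjusted p under 0.05).

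Between tissues, 12 of the 31 genes were at least 2-fold higher in the eyecup on the CPM scale and 1 was lower, 13 in all against 53.7% of 19210 genes (29% higher, 24.7% lower). The gap was widest for Chac1 (a glutathione-degrading enzyme and ATF4 target), with a log2 fold change of 4.37 ± 0.11 and medians of 83.7 TPM in eyecups (46.9 to 131.1) and 7.20 TPM in retinas (2.28 to 11.4). Asns (asparagine synthetase, another ATF4 target) went the opposite way, by -1.49 ± 0.09, with 9.55 TPM in eyecups (4.98 to 25.6) and 56.2 TPM in retinas (33.0 to 68.2). On the TPM scale the tissues did not overlap in 13 of the 31 genes, 4 with eyecups higher (Chac1, Dnajc3, Edem1 and Ppp1r15a) and 9 with eyecups lower (Asns, Atf4, Atf6, Canx, Ddit3, Eif2ak3, Ern1, Syvn1 and Trib3). Over all 19210 genes of the joint model 48.6% did not overlap, 15.9% with eyecups higher and 32.6% with eyecups lower. The other genes called higher were Dnajc3 (1.61 ± 0.04), Edem1 (1.56 ± 0.04), Pdia3 (1.47 ± 0.05), Ppp1r15a (1.46 ± 0.04), Sdf2l1 (1.35 ± 0.05), Manf, Pdia4, Pdia6, Xbp1, Hspa5 and Derl1 (1.04 to 1.14). The choice of scale matters here. The median of all genes was 0.008 on the CPM scale, -0.33 with a GC offset and -0.52 on the TPM scale, and the median of the 31 genes was 0.51, 0.23 and -0.20 on the same scales. The median of the 31 genes lay above that of all genes on each scale. Chac1 and Asns were called on all 3. The sensors had lower medians in eyecups on the TPM scale. Eif2ak3 had medians of 15.5 TPM in eyecups and 28.7 TPM in retinas, Ern1 had 10.8 TPM in eyecups and 23.5 TPM in retinas, and Atf6 had 18.8 TPM in eyecups and 39.7 TPM in retinas. Ddit3 had 38.0 TPM in eyecups and 89.2 TPM in retinas.

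**Figure D4:**
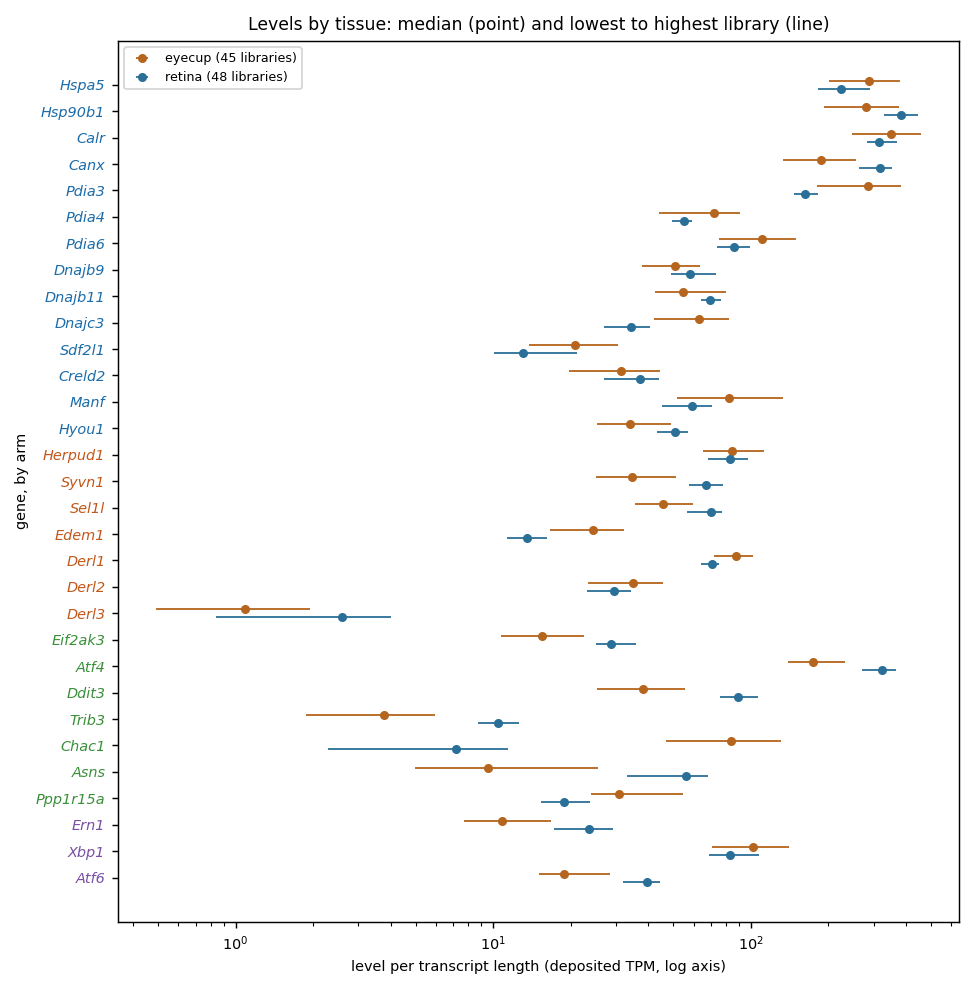
Deposited TPM on a log axis (x axis) for each gene (y axis, names coloured by arm), with the median as a point and a line from the lowest to the highest library, for 45 eyecup and 48 retina libraries. Chac1 (higher in eyecups) and Asns (lower in eyecups) have ranges that do not meet, and Derl3 is lowest in both tissues.

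Within groups, the arms differed in how far their genes moved together from library to library. Pearson correlations of deviations from the group means are given as a description, since all points share library composition and depth. Between folding genes the median over 91 pairs was 0.69 in the eyecup (45 libraries) and 0.36 in the retina (48 libraries), beside 0.06 and -0.01 between the 31 genes and all genes tested. In the eyecup Hspa5 was most like Pdia3 (r = 0.94), Xbp1 (0.90), Hsp90b1 (0.88) and Edem1 (0.85). In the retina it was most like Calr (0.78), Pdia3 (0.76) and Xbp1 (0.74). Pairs of degradation genes had medians of 0.09 and 0.01. Pairs within the PERK-ATF4 arm had 0.07 in the eyecup and 0.35 in the retina.

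The retina levels of Asns had a gap. Its 48 retina libraries fell into 2 ranges with nothing between, 22 libraries at 23.4 to 31.9 CPM and 26 at 38.0 to 52.0 CPM. Both ranges occurred in every group. The lower one held 3 of 8 libraries in Efemp1ki/ki and 2 of 8 in wild type at 3 months, 3 of 8 in Efemp1ki/ki and 6 of 8 in wild type at 9 months, and 4 of 8 in each genotype at 17 months. In wild-type retinas at 3 months, libraries 5 and 7 had 30.1 and 29.6 CPM of Asns and 2.27 and 2.78 CPM of Chac1. The other 6 libraries of that group had 44.8 to 52.0 CPM of Asns and 3.76 to 7.09 CPM of Chac1. In Efemp1ki/ki retinas at 3 months libraries 3, 4 and 5 had 26.3 to 29.9 CPM of Asns with 1.31 to 2.17 CPM of Chac1, and the other 5 had 43.0 to 48.2 CPM with 3.85 to 5.60 CPM. In the older Efemp1ki/ki groups Chac1 did not separate in the same way. Library 2 at 9 months had 31.1 CPM of Asns with 4.68 CPM of Chac1, against 41.5 and 4.22 CPM in library 9, and library 4 at 17 months had 26.6 CPM of Asns with 4.42 CPM of Chac1, against 38.0 and 4.27 CPM in library 5. Of the eyecup libraries, 44 of 45 lay at 5.30 to 16.1 CPM and 1 at 21.8 CPM. The widest gap was sought on the CPM scale in retinas and on the log2 scale in eyecups, so the tissues are not compared by it. The genotype difference of Chac1 in the retina was -0.44 ± 0.32 at 3 months and 0.69 ± 0.33 at 9 months, and that of Asns -0.18 ± 0.17 and 0.29 ± 0.17, none of them called.

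**Figure D5:**
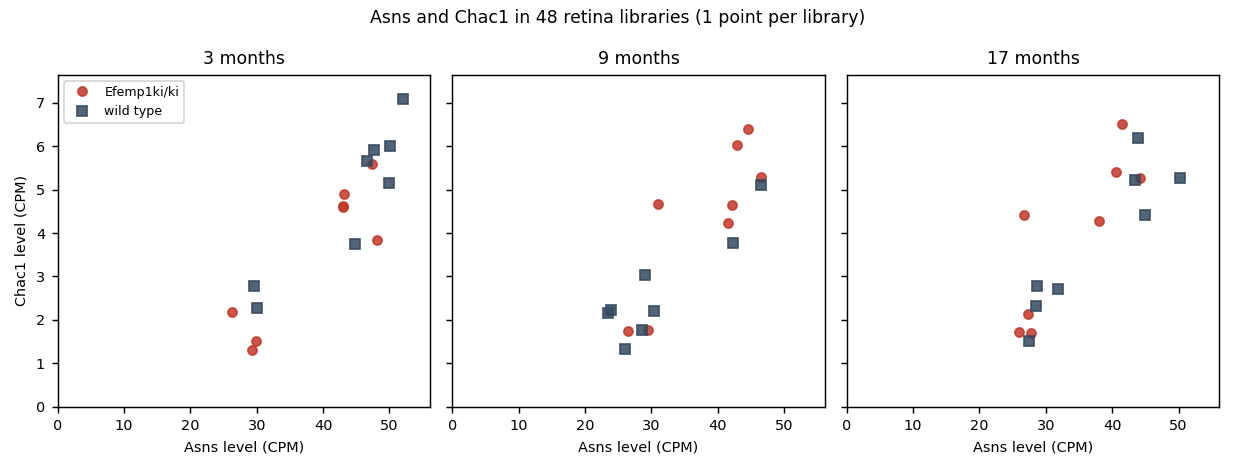
Chac1 level (y axis) against Asns level (x axis), both in CPM, for each of the 48 retina libraries at 3, 9 and 17 months, with Efemp1ki/ki as circles and wild type as squares. No library lies between 31.9 and 38.0 CPM of Asns, libraries of both genotypes fall on either side at each age, and Chac1 tends to be low where Asns is.

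Other genes known as ATF4 targets shared the pattern. Asns was singled out after its values were seen, so the likeness is a description with no test. Of 35 other ATF4 targets and amino acid response genes, 25 had a correlation with Asns above 0.5 over the 48 retina libraries (71.4%), against 1.80% of all genes tested. The median was 0.69. Among them were Mthfd2 (mitochondrial folate enzyme, r = 0.91), Yars (0.90), Slc7a5 (an amino acid transporter, 0.87), Cars (0.87), Sesn2 (0.85) and Phgdh (serine synthesis, 0.85). Of the listed genes Chac1 (0.86), Atf4 (0.83) and Herpud1 (0.76) did so. The windows of Chac1 and Herpud1 hold a CARE and that of Atf4 does not. Trib3, whose window holds a CARE, had a correlation of 0.41. In the eyecup 0 of the same 35 genes passed 0.5, against 11.4% of all genes tested. Of the other lists in the retina, 4 of 20 other degradation genes (20%), 2 of 29 other folding genes (6.9%), 0 of 16 other sensors and regulators and 0 of 17 heat shock genes passed it. Because the libraries form 2 clusters, the relation was also read within each. Among the 22 lower libraries 6 of 35 targets were above 0.5 against 5.52% of all genes, and among the 26 upper ones 11 of 35 against 11.8%, with a median of 0.25 in each. With the 6 other PERK-ATF4 genes Pearson's r ran from -0.13 (Trib3) to 0.72 (Atf4) among the lower libraries and from -0.07 (Trib3) to 0.52 (Ddit3) among the upper ones. Asns and Atf4 had r = 0.72 and Spearman's rho = 0.75 in the lower range, and r = 0.42 and rho = 0.39 in the upper. Asns and Ddit3 had r = 0.43 and rho = 0.31 in the lower range, and r = 0.52 and rho = 0.38 in the upper. Asns and Chac1 had r = 0.21 and rho = 0.30 in the lower range, and r = 0.34 and rho = 0.27 in the upper. These values come from libraries divided by Asns itself and carry no test. Over the 48 libraries the deviations of Asns had correlations of 0.54 with the summed endothelial list and 0.37 with that of rods (9 markers). They had 0.36 with that of Mueller glia and -0.34 with the ocular surface list. With the immediate early genes they had 0.33, with the GC trend 0.23 and with library totals 0.15. In retinas the ocular surface sum was mostly Pax6 (median 305 TPM), and the other genes of that list had medians up to 5.46 TPM. Kdr was the highest endothelial gene there (81.35 TPM, next Cldn5 with 29.05 TPM). These 2 sums thus give most weight to single genes and are no measure of the tissue named. The part of all these measures in the pattern was not tested.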

How the data were processed

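Poly(A) RNA of neural retina and posterior eyecup was sequenced, and sample titles gave the groups. RNA extraction used RNeasy micro columns and DNase I, and library preparation the stranded TruSeq mRNA chemistry, per the labels' protocols. Genome build GRCm38.p4 is named in the submitters' processing notes, and the sources used here do not give the aligner, counter, annotation version or strand setting. Estimated counts per gene were deposited, which were rounded to whole numbers for testing. The deposited TPM values are scaled so that protein-coding genes alone add up to the same total in every library, and were treated as a score for comparing levels between genes. In both deposited tables a column (1 each) matched no sample and was not used.

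Differences were tested with edgeR 4.0.16 (quasi-likelihood F test, TMM scaling, its default expression filter, robust) in R 4.3.3, with 1 model of 6 groups per tissue and 1 joint model of 12 groups for the tissue comparisons. Calls have a Benjamini-Hochberg adjusted p under 0.05 over all genes tested, and a log2 fold change of at least 1 either way between tissues. The ± after a log2 fold change is its standard error, |log2 fold change| over the square root of F. CPM are counts scaled to the TMM-adjusted library size. Libraries stood apart, or had an extreme GC trend, at more than 3 median absolute deviations from the tissue's median. Totals of 14236109 to 35297565 counts in eyecups and 9218087 to 37475423 in retinas set the counting precision, and no pair of libraries within a group agreed within sampling noise (closest chi-square per degree of freedom 2.29). The scripts were tested on simulated counts. GC content came from GENCODE M21 and promoters from RefSeq (GRCm38.p6). Alternatives were RLE scaling, no expression filter, a replicate block, a GC offset, omitted libraries, DESeq2 1.42.0 and limma 3.58.1 on log2(TPM + 1). An ocular surface covariate and the omission of eyecup library 5 of Efemp1ki/ki at 17 months were chosen after seeing the data.

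The 31 genes and all other lists were chosen with earlier results of these data known. Called genes were named with values, Hspa5, Xbp1, Atf4 and Ddit3 in every genotype comparison, and at most 3 called genes per direction from other lists. The gap in Asns was noticed in the data. A marker of the retina is not reported here.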

Additional observations from a re-analysis of the deposited data

Results flagged for a closer look

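Levels of 11 of the genes were examined in each of 12 groups for a library far from the rest of its group by Dixon's criterion, and 8 of 132 values stood out, where chance alone marks about 1 in 20. In eyecups of Efemp1ki/ki mice they were Atf4 in library 6 at 9 months (114.4 CPM, next 133), Canx in library 2 at 17 months (398.5 CPM, next 310), Ddit3 in library 4 at 3 months (24.79 CPM, next 19.28) and Pdia6 in library 7 at 9 months (150.9 CPM, next 126.1). In retinas of Efemp1ki/ki mice at 3 months library 5 was far out for Canx (539.1 CPM, next 440.4) and for Syvn1 (57.85 CPM, next 74.27). In wild-type retinas Hyou1 was low in library 7 at 3 months (90.41 CPM, next 99.14) and Ppp1r15a in library 4 at 9 months (17.89 CPM, next 20.1). Eyecup library 4 and retina library 5 of Efemp1ki/ki at 3 months also stood apart in overall expression and had an extreme GC trend.

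The genotype difference was larger in the eyecup than in the retina, by the test of the difference itself, for Ppp1r15a (0.402 on the log2 scale), Creld2 (0.272), Calr (0.209), Hyou1 (0.167) and Eif2ak3 (0.156).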

How the results depend on the processing

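Depth of at least 9218087 counts per library left all 31 genes testable. How far counting noise rather than the spread between libraries limited precision was not tested, also for Derl3, the lowest gene by TPM. Most values kept their direction and their side of the threshold, for example 130 under DESeq2, 129 under RLE scaling, 119 without the expression filter and 123 with the replicate block, against 94 under the GC offset and 78 on the TPM scale. The cause of the differences below was not tested.

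Counts of the 31 genes called moved as follows. Here and in the results above, counts under an alternative come without the share of all genes called under it. They cannot tell a move of these genes from a move of all genes. With DESeq2 they were 2 for genotype in the eyecup at 17 months, 1 for 17 against 3 months in wild-type eyecups, 1 for 17 against 9 months in eyecups and 9 for the genotype difference between tissues. RLE scaling gave 1 for 17 against 9 months in eyecups and 0 for genotype in the retina at 17 months. Without the filter there was 1 for genotype in the eyecup at 3 months, 0 in the retina at 17 months, 0 over its mean of ages and 2 between tissues. The GC offset gave 0 for genotype in the eyecup at 3 months, 1 over its mean of ages, 1 between tissues, 0 for 9 against 3 months and 1 for 17 against 9 months in eyecups, 7 for 17 against 3 months in Efemp1ki/ki retinas and 7 for eyecup against retina. On the TPM scale there were 0 for genotype in the eyecup at 3 months and 1 over its mean of ages, 1, 0 and 3 in the retina at 3 months, at 17 months and over the mean, 0 between tissues, 1 in Efemp1ki/ki and 6 in wild-type eyecups for 17 against 3 months, and 5 for eyecup against retina.

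Without the libraries standing apart the counts were 0 for genotype in the eyecup at 3 months, 0 in the retina at 17 months and 0 over its mean, 2 between tissues, 2 for 17 against 9 months in eyecups, 4 in retinas, and 2 for 17 against 3 months in Efemp1ki/ki retinas. Without those of extreme GC trend they were 0, 0, 0, 1, 2, 4 and 2 for the same comparisons, and 1 for 9 against 3 months in eyecups. The ocular surface covariate gave 4 for genotype at 3 months, 4 for 17 against 3 months in Efemp1ki/ki and 1 for 17 against 9 months, all in eyecups. Leaving out eyecup library 5 of Efemp1ki/ki at 17 months gave 3 over the mean of ages.

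Same-numbered libraries of the genotypes had correlations of their deviations from -0.57 to 0.79, and 7 of 42 correlated best with their own number, so the numbers were not taken to pair them. With the replicate block 0 genes were called for genotype in the eyecup at 3 months, 1 for 9 against 3 months in eyecups and 3 between tissues, and the log2 fold changes of Ddit3 over the mean of ages (-0.002) and of Hspa5 at 3 months (0.031) in eyecups changed sign.

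Other log2 fold changes that changed sign were mostly near 0. With the GC offset these were Atf4 (-0.016 at 3 and -0.004 at 9 months), Hspa5 (0.076 at 3 months) and Xbp1 (-0.041 at 3 months) by genotype in eyecups, Hspa5 (-0.005) by genotype in retinas over the mean, Ddit3 (-0.011) for 17 against 3 months in Efemp1ki/ki eyecups, and in retinas Hspa5 (0.002 for 17 against 3 months in Efemp1ki/ki, -0.012 for 9 against 3 months) and Atf4 (-0.033 for 17 against 9 months). On the TPM scale they were Canx (0.008) and Hspa5 (0.071) at 3 months and Ddit3 over the mean (-0.063) by genotype in eyecups, Xbp1 at 3 months (0.046), Ddit3 at 17 months (0.005) and Ddit3 over the mean (0.024) by genotype in retinas, and Ddit3 between tissues (-0.086). With age on that scale they were Canx (0.009 in Efemp1ki/ki and 0.005 in wild type) and Hspa5 (0.054 in Efemp1ki/ki) in retinas and Xbp1 (-0.050) in Efemp1ki/ki eyecups for 17 against 3 months, Hspa5 (-0.010) in eyecups for 9 against 3 months, and Ddit3 (-0.034) in eyecups and Dnajb9 (0.174), Pdia3 (0.013), Atf4 (-0.034) and Ddit3 (-0.042) in retinas for 17 against 9 months.

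With the ocular surface covariate Ddit3 (0.083) changed sign by genotype at 17 months, as did Hspa5 (0.090) and Xbp1 (0.096) for 17 against 3 months in wild type and Hspa5 (0.021) and Xbp1 (0.011) for 17 against 9 months. Without library 5 Ddit3 at 17 months was 0.021. Without the libraries of extreme GC trend Hspa5 at 3 months (0.113) and Ddit3 over the mean (-0.015) by genotype in eyecups, Ddit3 between tissues (-0.019), Xbp1 in Efemp1ki/ki eyecups (-0.011) and Hspa5 in Efemp1ki/ki retinas (0.026) for 17 against 3 months, Xbp1 for 9 against 3 months in eyecups (-0.015) and Ddit3 for 17 against 9 months in retinas (-0.003) did so. Without those standing apart Hspa5 at 3 months (0.069) and Ddit3 over the mean (-0.008) by genotype in eyecups, and Xbp1 in Efemp1ki/ki eyecups (-0.014) and Hspa5 in Efemp1ki/ki retinas (0.015) for 17 against 3 months did so.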
